A study of Mus musculus with 2 samples.

Results

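The collagen genes were taken as every annotated gene whose symbol runs Col, a number, a and a number, and 38 of them had reads, of 15631 annotated genes with reads in either library. GENCODE M21 names 44 such genes, all protein coding. Replicate 1 held reads of 37 of them, replicate 2 of 34, and 33 were seen in both. The 38 comprised 11 fibrillar collagens, 8 collagens of basement membranes (type IV and the multiplexins) and 19 others. Col6a4, Col6a5, Col9a2, Col10a1, Col17a1 and Col25a1 had no row in either library. Of the 38, 23 reached 20 reads over both libraries and 16 reached 20 reads in each, and statements about medians cover those genes alone.

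The tissue was gastrocnemius, a calf muscle, from untreated male mice aged 10 days of B6CASTF1/J, the F1 hybrid of C57BL/6J and CAST/EiJ. The series holds 2 libraries, each made from 2 micrograms of total RNA, and the labels number them as biological replicates 1 and 2 of 1 group, from separately numbered males listed under a shared donor record. No condition was varied, so the comparisons are between collagens, between kinds of transcript model, and between replicate 1 and replicate 2 as libraries. Replicate 1 held 1145490 mouse reads and replicate 2 held 941841. Each read was counted as 1, so a level is the number of reads in 1000000 mouse reads (CPM), with no division by length. How closely read counts follow molecule counts was not tested. By a limit of 3 reads, which covers counting error only, a gene with no reads could still have stood at 2.62 CPM in replicate 1, or at 3.19 CPM in the smaller replicate 2.

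Collagens are secreted proteins of the extracellular matrix in which 3 chains wind into a triple helix, each chain carrying a glycine at regular steps, 1 in each triplet of residues. Fibrillar collagens assemble into the tension-bearing fibrils of tendon, fascia and the sheaths around muscle fibres, whereas type IV collagen forms the sheet-like network of the basement membrane that wraps each fibre and each capillary. Type VI collagen makes beaded filaments where basement membrane and fibrils meet, and the FACIT collagens sit on the surface of fibrils. In muscle these transcripts are known mainly from fibroblasts and vascular cells rather than from the fibres themselves. In bulk tissue, fewer cells of a type and less RNA per cell cannot be told apart.

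The repeat can be read directly in the exons. Internal coding exons whose length is a multiple of 9 nt, a whole number of glycine triplets, made up 83.9% of the 627 internal coding exons of the fibrillar genes, 45.2% of 361 in the basement membrane genes and 57.7% of 924 in the other collagen genes, against 14.3% over all protein-coding genes of the annotation. Exons of exactly 54 nt were 48.6% of the fibrillar exons and 0.726% of exons over all coding genes. The longest unbroken run of triplets beginning with a GGN codon was 344 triplets in Col3a1, 339 in Col1a2 and 338 in Col1a1. In Col4a1 and Col4a2, whose helices are known for interruptions, it was 40 and 66 triplets, and in Col6a1 and Col6a2 it was 87. The exons below, taken from the M21 transcripts on mm10, show this unit in 3 fibrillar chains that the results turn on, in a type V and a type IV chain, and in the 63-nt form of a type VI chain. Capitals mark the first 2 bases of each in-frame glycine codon.
Col1a1 exon 26, chr11:94944355-94944408, plus strand: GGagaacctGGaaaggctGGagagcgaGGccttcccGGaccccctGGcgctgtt
Col1a2 exon 27, chr6:4524117-4524170, plus strand: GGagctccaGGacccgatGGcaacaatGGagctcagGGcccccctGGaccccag
Col3a1 exon 26, chr1:45334761-45334814, plus strand: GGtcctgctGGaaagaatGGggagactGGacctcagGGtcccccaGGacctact
Col5a2 exon 29, chr1:45403116-45403169, minus strand: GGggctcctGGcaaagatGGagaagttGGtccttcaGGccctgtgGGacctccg
Col4a1 exon 17, chr8:11238998-11239051, minus strand: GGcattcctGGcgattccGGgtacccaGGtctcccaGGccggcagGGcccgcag
Col6a2 exon 17, chr10:76607727-76607789, minus strand: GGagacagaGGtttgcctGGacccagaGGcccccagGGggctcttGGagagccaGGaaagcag

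Collagen transcripts took 2.26% of mouse reads in replicate 1 (25882 reads) and 1.33% in replicate 2 (12515 reads), a mean of 1.79% ± 0.658 (SD, n = 2). The division among the 3 types was close in both libraries. Fibrillar genes supplied 87.7% and 87.2% of collagen reads in replicates 1 and 2, basement membrane genes 8.09% and 8.41%, and the other collagens 4.18% and 4.43%. Col3a1 and Col1a1 alone held 79.9% and 77.5% of collagen reads.

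Among fibrillar collagens, Col3a1, which encodes the chain of the homotrimeric type III collagen of pliable tissues, had the highest level, at 10116 CPM in replicate 1 against 6082 CPM in replicate 2. Col1a1, the main chain of type I collagen, followed with 7947 and 4216 CPM. Col1a2, the other chain of type I collagen, had 1041 and 924 CPM. Col1a1 reads thus outnumbered Col1a2 reads 7.64 to 1 in replicate 1 and 4.56 to 1 in replicate 2. Type V collagen, which nucleates and limits the width of type I fibrils, was read from all its genes, with Col5a1 at 261 and 122 CPM, Col5a3 at 153 and 68.0 CPM, and Col5a2 at 140 and 76.4 CPM. The counting intervals of Col5a3 and Col5a2 overlapped in each library, as the plot of levels shows, so their order is not resolved. Col11a2, a type XI chain best known from cartilage, had 103 and 57.3 CPM. Col11a1 had 31.4 and 17.0 CPM, and Col2a1, the cartilage type II chain, had 23.6 and 17.0 CPM. Of the cartilage markers listed, Comp stood close to Col2a1, at 20.95 and 18.05 CPM, and the others had at most 4 reads in a library. Acan had 2 reads in each library, Matn1 none, Sox9 3 reads in replicate 1 and none in replicate 2, Matn3 3 and 4 reads, and Comp, which tendon also makes, 24 and 17 reads. Those 5 markers together had 27.9 CPM in replicate 1 and 24.4 CPM in replicate 2. The part of cartilage cells in these levels was not tested. Col24a1 had 5 reads in replicate 1 and none in replicate 2, and Col27a1 had 1 read in each.

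**Figure D1:**
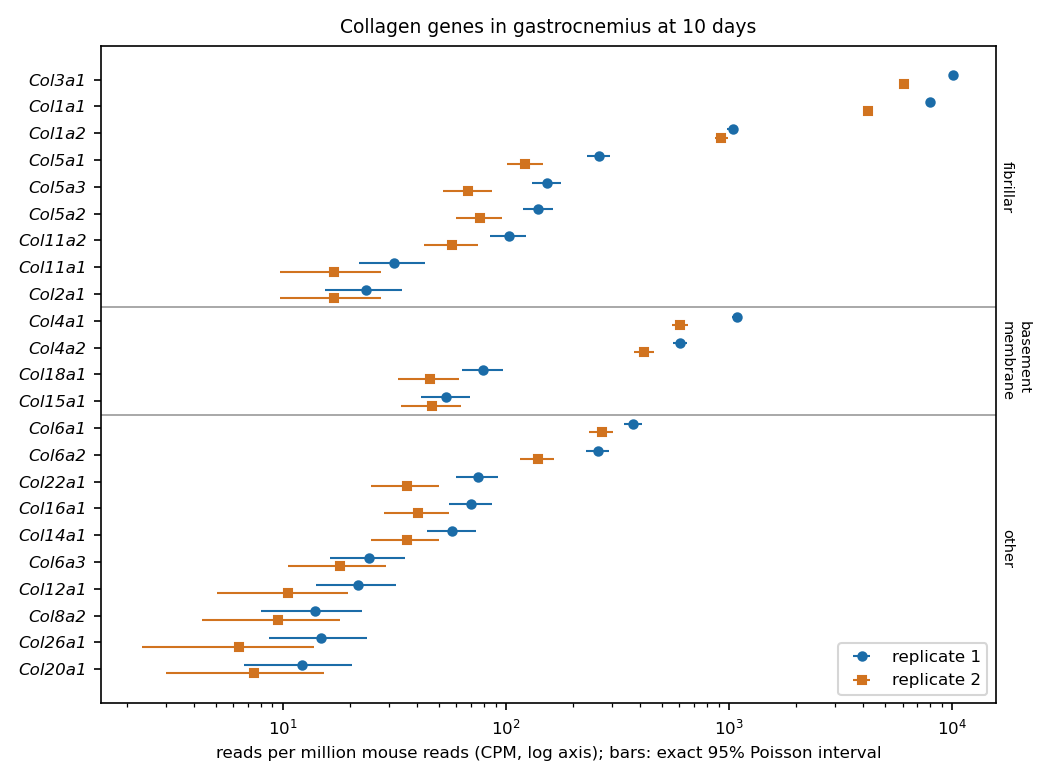
Level of each collagen gene with 20 or more reads over both libraries, in CPM on a log axis, with replicate 1 as circles, replicate 2 as squares and exact 95% Poisson intervals as bars. Col3a1 and Col1a1 stand far above the rest, and for all 23 genes the circle lies to the right of the square.

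The basement membrane collagens were led by Col4a1, with 1087 CPM in replicate 1 against 604 CPM in replicate 2. Col4a2 had 603 and 417 CPM. These chains form the type IV trimer found in almost every basement membrane. Col4a1 made up 64.3% of the reads of the pair in replicate 1 (95% Wilson interval 62.1% to 66.4%) and 59.1% in replicate 2 (56.0% to 62.2%). The chains of the more restricted type IV networks were at or near the limit of detection: Col4a5 had 4 and 2 reads, Col4a4 1 and 1, Col4a3 none in replicate 1 and 1 in replicate 2, and Col4a6 1 in replicate 1 and none in replicate 2. The multiplexins, which lie at the outer face of basement membranes, were lower than the type IV pair. Col18a1, the precursor of endostatin, had 79.4 and 45.7 CPM, and Col15a1 had 54.1 and 46.7 CPM.

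Of the other collagens, type VI had the most reads. Col6a1 had 372 and 269 CPM and Col6a2 had 258 and 139 CPM, and variants of these genes are known to cause muscular dystrophies. Col6a3, the remaining chain of the same trimer, had only 28 and 17 reads (24.4 and 18.05 CPM). Its annotated transcript is 9001 nt long, against 4100 nt for Col6a1 and 3949 nt for Col6a2, and the part of length in this gap was not tested. Col22a1, known from muscle-tendon junctions, had 75.1 and 36.1 CPM, Col16a1 69.8 and 40.3 CPM, and Col14a1, a fibril-associated collagen of growing tendon, 57.6 and 36.1 CPM. Within each library the counting intervals of these 3 FACIT genes overlapped. Col12a1 had 25 and 10 reads, Col26a1 17 and 6, Col8a2 16 and 9, and Col20a1 14 and 7. The 9 other genes of this type with reads (Col6a6, Col7a1, Col8a1, Col9a1, Col9a3, Col13a1, Col19a1, Col23a1 and Col28a1) had at most 6 reads in a library.

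Replicate 1 had the higher level for every one of the 23 collagen genes with 20 or more reads. Among all 7516 annotated genes with that many reads, 3821 were higher in replicate 1. The median log2 ratio of replicate 1 over replicate 2 was 0.80 for the 23 collagens, a 1.74-fold difference, and 0.01 for all 7516 genes. An adjusted p under 0.05 in an exact two-sided conditional binomial test (Benjamini-Hochberg over the 7516 genes) was reached by 12 of the 23, all higher in replicate 1, against 9.11% of all genes tested in either direction and 4.47% higher in replicate 1. A call also needed a 2-fold difference, and 3 collagens met both, against 2.75% of all genes, or 1.92% higher in replicate 1. The test compares 2 libraries and covers counting error only, so it carries no estimate of the variation between animals.

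The 3 called genes were Col5a1, Col5a3 and Col22a1. Col5a1 had 299 reads in replicate 1 and 115 in replicate 2, a log2 ratio of 1.10 (exact binomial test, adjusted p = 5.35e-11). Col5a3 had 175 and 64 reads, a log2 ratio of 1.17 (exact binomial test, adjusted p = 4.53e-07). Col22a1 had 86 and 34 reads, a log2 ratio of 1.06 (exact binomial test, adjusted p = 0.00453). Counting annotated models only, Col22a1 lost its call (log2 ratio 1.49, exact binomial test, adjusted p = 0.0585). The highest collagens passed the adjusted p but not the 2-fold limit, with log2 ratios of 0.73 for Col3a1, 0.91 for Col1a1, 0.85 for Col4a1, 0.53 for Col4a2, 0.47 for Col6a1 and 0.89 for Col6a2. Col1a2 stood apart from its partner chain, with a log2 ratio of 0.17 that missed the threshold (exact binomial test, adjusted p = 0.0740). Col15a1 was also close to level between the libraries, at 0.21 (adjusted p = 0.801, same test).

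Transcript length moved with the library ratio across all genes. The median log2 ratio was -0.35 in genes with annotated transcripts under 1000 nt, 0.13 at 4000 to 5000 nt, 0.23 at 5000 to 6000 nt and 0.31 at 6000 to 8000 nt, and then 0.20 in genes of 8000 nt or more. The 7 collagens of 5000 to 6000 nt with 20 or more reads in each library had a median of 0.73, the 4 of 6000 to 8000 nt a median of 0.86, and the 2 of 8000 nt or more, Col5a1 and Col22a1, a median of 1.08. The median ratio of genes of like length then replaced the ratio of library sizes, a choice made after the data were seen. Of the 23 collagens, 21 remained higher in replicate 1, against 4092 of all 7516 genes. The median log2 ratio was 0.56 for the collagens and 0.05 for all genes. At any fold, 8 collagens kept an adjusted p under 0.05, against 504 of the 7516 genes. None of the collagens was then called at 2-fold, against 120 of the 7516 genes. An unadjusted p under 0.05 was reached by 13 of 23 collagens and 1339 of 7516 genes. The log2 ratios were 0.89 for Col5a1, 0.86 for Col5a3 and 0.85 for Col22a1.

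**Figure D2:**
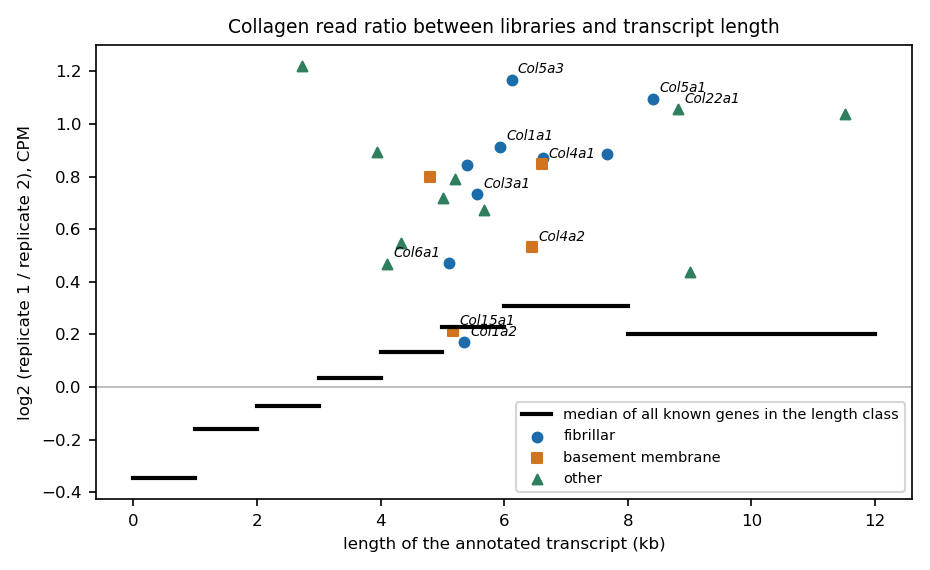
Log2 ratio of replicate 1 over replicate 2 in CPM against the length of the annotated transcript, with a point for each collagen gene with 20 or more reads and black lines for the median of all annotated genes in a length class. The lines climb to 0.31 at 6000 to 8000 nt and stand at 0.20 beyond, and all but Col1a2 and Col15a1 lie above the line of their length class.

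The marker lists of cell types differed in direction between the libraries. Of 5 fibroblast markers, Pdgfra had 34.9 CPM in replicate 1 against 18.05 CPM in replicate 2. The other 4 (Dcn, Lum, Dpt and Pi16) had lower levels in replicate 1. Dcn, the decorin gene, passed the adjusted p (exact binomial test, adjusted p = 0.0331) with 512 and 611 CPM. The summed level of the fibroblast markers was 704 CPM in replicate 1 and 802 CPM in replicate 2, that of 5 tenocyte markers 471 and 494 CPM, that of 5 endothelial markers 161 and 116 CPM, that of 5 pericyte and smooth muscle markers 651 and 672 CPM, that of 5 Schwann cell markers 1743 and 1304 CPM, and that of 4 red cell globins 397 and 833 CPM. All 5 Schwann cell markers had higher levels in replicate 1, like the collagens, and 3 passed the adjusted p, against 9.11% of all genes. Of these Prx, the periaxin gene, was called with 60 and 13 reads (exact binomial test, adjusted p = 5.36e-05), against 2.75% of all genes called. Myh11, the smooth muscle myosin heavy chain, was also called higher in replicate 1, with 28 and 7 reads (exact binomial test, adjusted p = 0.0391). The 5 pericyte and smooth muscle markers went both ways. Pdgfrb and Cspg4 were also higher in replicate 1, while Acta2 (366 and 394 CPM) and Rgs5 (196 and 225 CPM) were lower. All 4 globins were lower in replicate 1 and passed the adjusted p, and 2 were called. These were Hba-a1, with 211 and 425 reads (exact binomial test, adjusted p = 1.00e-25), and Hbb-bt, with 22 and 46 reads (adjusted p = 0.00453, same test). Of the bone markers, Bglap, Ibsp and Sp7 had no row in either library, Dmp1 had 1 read in each, and Alpl had 4 and 1 reads. Of the keratinocyte markers, Krt5 and Krt14 had no row and Krt10 had 5 and 9 reads. The muscle fibre markers Acta1, Ckm, Mylpf, Tnnc2 and Atp2a1 together held 237673 and 250267 CPM. The marker levels were not adjusted for transcript length, with which the library ratio moved across all genes. The part of length in the marker ratios was not tested, nor was the part of these cell types in the collagen ratios.

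A list of 50 genes that modify, fold, process, cross-link, bind or degrade collagen had reads of 48 and 32 tested members, with a median log2 ratio of 0.09. An adjusted p under 0.05 was reached by 4 of the 32, against 9.11% of all genes, with P4hb, Fkbp10 and Mrc2 higher in replicate 1 and Serpinh1 lower. P4hb, the beta subunit of prolyl 4-hydroxylase and a disulfide isomerase, had 543 CPM in replicate 1 and 427 CPM in replicate 2. Serpinh1, the collagen chaperone HSP47, had 433 and 532 CPM. Fkbp10, a prolyl isomerase of the same compartment, had 80.3 and 42.5 CPM. Mrc2, the endocytic collagen receptor Endo180, was the 1 called member, against 2.75% of all genes, with 36 and 10 reads. Among the rest, Pcolce, an enhancer of C-propeptide cleavage, had 341 and 320 CPM, the integrin subunit Itgb1 378 and 307 CPM, the gelatinase Mmp2 178 and 186 CPM, and the cross-linking oxidase Lox 50.6 and 54.1 CPM. Compared with Col1a1 and Col3a1, all of them were low.

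The transcript models sort reads by how they match the annotation. A read is full here when it follows all the introns of an annotated transcript (the TALON class Known), and incomplete when its introns are a consecutive subset of an annotated chain (incomplete splice match, ISM). The remaining classes hold new combinations of annotated splice sites (NIC), models with an unannotated splice site (NNC), and unspliced or genomic reads. Of collagen reads, 72.6% in replicate 1 and 64.4% in replicate 2 were full, and 20.8% and 28.7% were incomplete. Annotated genes other than collagens had 8.54% and 7.34% incomplete reads. Most incomplete collagen reads lacked the 5′ part, with 5110 and 3304 reads in that subclass and 55 and 13 reads lacking the 3′ part.

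The types differed in this share. Incomplete reads were 17.9% of fibrillar reads in replicate 1 and 24.5% in replicate 2, 44.5% and 65.3% of basement membrane reads, and 35.3% and 41.8% of reads of other collagens. The fibrillar value rests on Col1a1 and Col3a1, since without them 78.0% and 85.8% of fibrillar reads were incomplete. By the median of the genes the order of the types was another one, with 56.9% and 70.4% over 7 fibrillar genes, 47.0% and 55.3% over 5 other collagens, and 38.2% and 51.1% over 4 basement membrane genes. Taken gene by gene, the median incomplete share of the 16 collagens was 48.5% in replicate 1 and 58.6% in replicate 2. The medians over all 4697 genes with 20 or more reads in both libraries were 4.17% and 3.70%, and over the 982 of these with transcripts of 4000 nt or more they were 9.09% and 8.70%. The share was lower in replicate 1 for 15 of the 16 collagens, against 1848 of the 4697 genes, with Col5a1 as the exception. The Col5a1 share does not count single-exon reads classed as genomic, which were none of 299 in replicate 1 and 19 of 115 in replicate 2. A call (Fisher's exact test, adjusted p under 0.05 over the 4697 genes and 10 points or more) was made for 3 collagens, against 1.26% of all genes, or 0.703% in this direction.

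**Figure D3:**
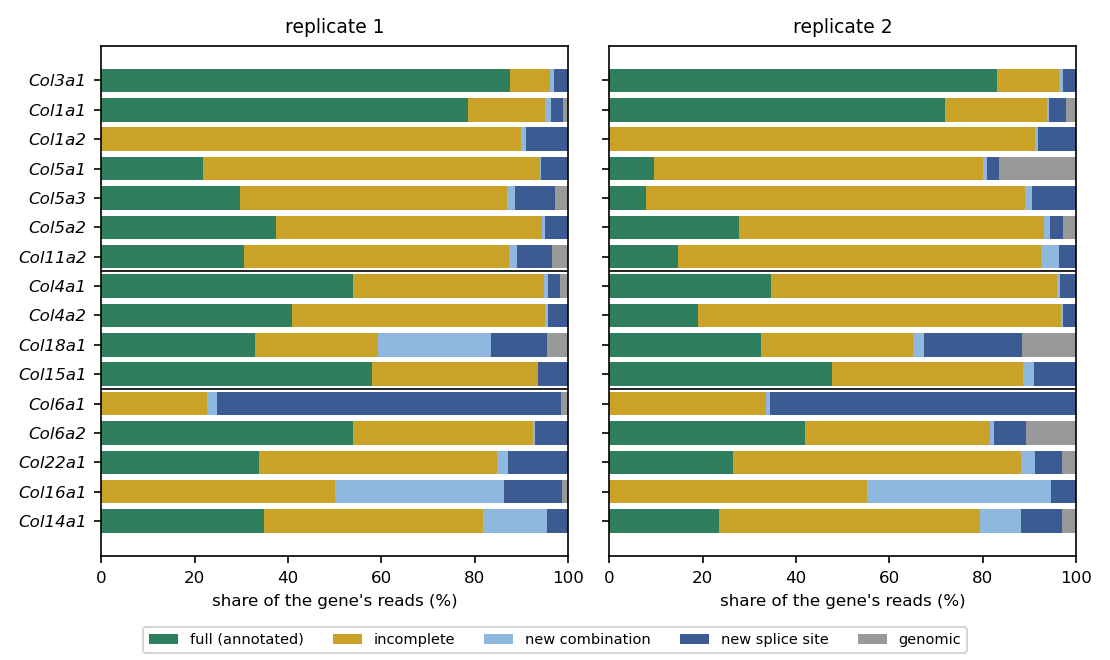
Share of each gene's reads in each class of transcript model, in percent, for the 16 collagen genes with 20 or more reads in both libraries, replicate 1 on the left and replicate 2 on the right, with lines between fibrillar, basement membrane and other genes. Full reads dominate in Col3a1 and Col1a1, are absent in Col1a2, Col6a1 and Col16a1, and take a smaller share in replicate 2 than in replicate 1 for every other gene shown.

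The called genes were Col4a1, Col4a2 and Col5a3. Col4a1 had 41.0% incomplete reads in replicate 1 (95% Wilson interval 38.3% to 43.7%) and 61.3% in replicate 2 (57.3% to 65.2%), and the intervals do not overlap (Fisher's exact test, adjusted p = 3.11e-13). Col4a2 had 54.1% and 77.6% (adjusted p = 1.71e-12, same test), and Col5a3 had 57.1% and 81.3% (adjusted p = 0.0414, same test). With genomic reads left out, Col5a3 lost its call (58.8% and 81.3%, Fisher's exact test, adjusted p = 0.0695). Col3a1, with 8.61% and 13.4%, and Col1a1, with 16.5% and 21.8%, passed the adjusted p with differences under 10 points. At the level of single models the share of the full transcript moved with these values. Col4a1-201 took 53.98% of the gene's reads in replicate 1 and 34.6% in replicate 2, Col4a2-201 took 41.0% and 19.1%, and Col5a3-201 took 29.7% and 7.81%. All 3 were called (Fisher's exact test over 9823 models, adjusted p from 5.43e-12 to 0.0180), against 1.56% of all models tested. Full and incomplete shares divide the same reads of a gene, so these calls are not a separate result. Reads of the last exon alone were 14.2% of Col4a2 reads in replicate 1 and 32.1% in replicate 2 and were called as well. The 2 other called models were single-exon models classed as genomic in replicate 2 only, in Col5a1 (none of 299 reads and 19 of 115) and Col6a2 (none of 296 and 14 of 131). Single-exon reads of all classes were 8.36% and 16.5% of Col5a1 reads and 3.38% and 10.7% of Col6a2 reads. Replicate 1 held 25 single-exon reads of Col5a1 and 10 of Col6a2, and none was classed as genomic. These 2 calls thus compare the class given to single-exon reads and not their number. The labels cite different versions of the pipeline document for the libraries, and that difference cannot be told apart from the replicate.

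A measure that does not use the class names also placed Col3a1 and Col1a1 highest. A read was counted as end to end when its model overlapped both the first and the last exon of the annotated transcript. End-to-end reads were 91.3% and 86.5% of Col3a1 reads, 82.3% and 75.6% of Col1a1 reads, 75.1% and 65.6% of Col6a1 reads, 56.4% and 37.3% of Col4a1 reads and 44.6% and 21.4% of Col4a2 reads. Col5a1, whose transcript of 8406 nt is the longest of the fibrillar genes shown, had 24.4% and 11.3%. The median over the 16 collagens was 45.01% in replicate 1 and 29.3% in replicate 2, against 76.1% and 73.9% for 204 genes of 5000 to 6000 nt and 91.0% and 91.4% for 4549 genes in all. All 16 collagens were higher in replicate 1, against 2084 of the 4549 genes. Across the 16, Spearman's rho of the share with transcript length was -0.25 in replicate 1 and -0.21 in replicate 2, a description over genes read in the same libraries. Without Col1a2 and Col18a1, the genes with the lowest end-to-end shares of the 16 in each library, it was -0.56 and -0.52 over 14 genes. Col18a1 depends on the transcript chosen, since its most-read full model, Col18a1-202, starts at another first exon than the annotated transcript used here and had 22 and 14 reads.

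Col1a2 departed from the other type I and III chains. Its annotated transcript, at 5348 nt, is shorter than that of Col1a1 (5930 nt) and of Col3a1 (5564 nt), yet only 77 of 1192 reads in replicate 1 (6.46%) and 49 of 870 in replicate 2 (5.63%) were end to end. All of its reads reached the last exon. Distances here count exonic bases from the 3′ end of the annotated transcript, with the last exon included. By that measure, 86.0% and 84.7% of Col1a2 reads reached the exon at 2000 nt. The shares were 63.1% and 59.9% at 3000 nt, and 38.9% and 33.4% at 4000 nt. At 4000 nt, 95.3% and 91.2% of Col3a1 reads and 91.3% and 85.8% of Col1a1 reads were still present. The loss in Col1a2 was of like size in the 2 libraries, unlike that in Col4a1 and Col4a2. Counting end-to-end reads alone, Col1a1 outnumbered Col1a2 by 97.3 to 1 in replicate 1 and by 61.3 to 1 in replicate 2. The ratio of the type I chains therefore depends on which reads are counted. For the type IV pair the choice mattered less, with 2.28 Col4a1 reads per Col4a2 read end to end and 1.80 over all reads in replicate 1, and 2.52 and 1.45 in replicate 2.

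**Figure D4:**
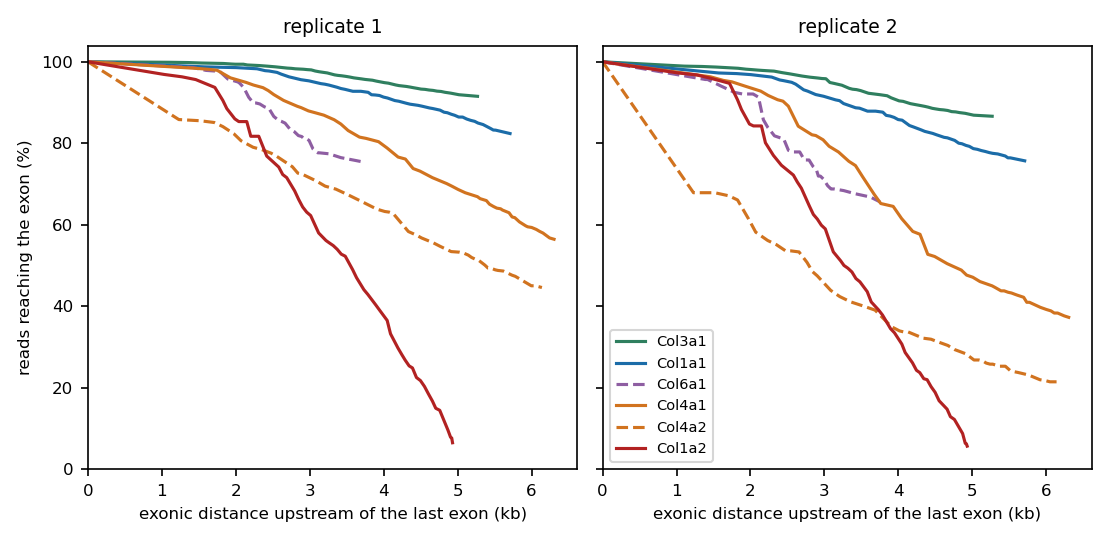
Share of a gene's reads that reach each exon, in percent, against exonic distance in kilobases, for 6 collagen genes, replicate 1 on the left and replicate 2 on the right. The axis is labelled as upstream of the last exon but counts from the annotated 3′ end, with the last exon included. Col3a1 and Col1a1 stay above 75% to the first exon in both libraries, Col1a2 declines past 2 kb to 6.46% and 5.63%, and Col4a1 and Col4a2 decline further in replicate 2 than in replicate 1.

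Col1a2 and Col6a1 had no full read at all, which allows a full share of up to 0.252% and 0.345% for Col1a2 in replicates 1 and 2 and up to 0.704% and 1.19% for Col6a1. In both genes the reads passed over very short annotated exons. Exons 2 (11 nt) and 3 (15 nt) of Col1a2, on chromosome 6 between positions 4508335 and 4508954, lie early in the coding sequence. Of the reads with introns on both sides, none of 77 in replicate 1 and none of 49 in replicate 2 held exon 2, and 1 of 91 and none of 55 held exon 3. The intron that 50 and 36 of these reads share instead runs from 4 nt past the annotated end of exon 1 to the start of exon 4. The annotated coding stretch is shown with exons 2 and 3 in capitals.
Col1a2 exons 2 and 3, plus strand: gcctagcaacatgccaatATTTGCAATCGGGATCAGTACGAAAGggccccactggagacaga

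In Col6a1, on chromosome 10, the passed-over exons were 6 and 7, of 21 nt each, and 29, of 9 nt. Exon 6 was held by none of 329 and none of 174 spanning reads, exon 7 by none of 331 and none of 174, and exon 29 by none of 404 and none of 232. An intron that spans exons 6 and 7, with the next exon starting 37 nt early, was present in 328 and 173 reads, and an intron that spans exon 29 in 401 and 230 reads. The resulting model of 32 exons and 4090 nt, against 35 exons and 4100 nt in the annotation, took 66.0% of Col6a1 reads in replicate 1 and 58.1% in replicate 2 and accounts for most reads of the new-splice-site class among collagens outside the fibrillar and basement membrane types. The annotated stretches are shown with the passed-over exons in capitals.
Col6a1 exons 6 and 7, minus strand: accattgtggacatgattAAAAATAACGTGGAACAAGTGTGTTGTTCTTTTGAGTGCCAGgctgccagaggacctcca
Col6a1 exon 29, minus strand: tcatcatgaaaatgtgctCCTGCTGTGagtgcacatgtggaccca

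Short exons behaved this way beyond collagens too. Of annotated internal exons of 30 nt or less with enough spanning reads, 5 of 25 in collagens were held by under 5% of reads, against 84 of 428 (19.6%) over all genes. Of longer exons the numbers were 0 of 927 in collagens and 113 of 56641 (0.2%) over all genes. The other 20 short collagen exons were held by most spanning reads. The least held of them was the 27-nt exon 14 of Col18a1, in 62 of 74 and 26 of 29 reads. The shortest were the 14-nt exon 3 of Col5a2 (69 of 69 and 22 of 22 reads), the 17-nt exon 3 of Col2a1 (20 of 20 and 6 of 6) and the 21-nt exon 4 of Col6a2 (205 of 207 and 72 of 74). The alignment of short exons was not tested, since the reads themselves were not analysed here.

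Of 952 internal exons of the annotated collagen transcripts, 935 were held by over 95% of the reads that spanned them. Exons held by 5% to 95% of at least 20 spanning reads numbered 105 in 12 genes. A spanning read held the exon with exactly those ends or skipped it whole within an intron. Reads of an overlapping exon with other ends were left out of both counts. Of the 105, 90 have ends that the annotation does not hold. Of the 90, 88 lie in Col1a1 and Col3a1 with at most 138 spanning reads, far fewer than either gene had in all. The 15 annotated ones were in 10 genes, among them a 46-nt exon of Col3a1 held by 3 of 20 and none of 5 spanning reads. Col3a1 had 11588 and 5728 reads in all. Of the 15, 13 have a length divisible by 3. None differed between the libraries by Fisher's exact test (adjusted p = 1 for each over 3830 variable exons, of which 0.0783% were called).

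The clearest were in fibrillar and FACIT genes. In Col11a2, 3 exons in the region of the amino propeptide varied: a 78-nt exon was held by 39 of 46 reads in replicate 1 and 10 of 13 in replicate 2, a 63-nt exon by 28 of 47 and 8 of 14, and a 180-nt exon by 37 of 46 and 9 of 13. In Col2a1, exon 2 of 204 nt, whose use is known to mark early cartilage cells and other embryonic tissue, was held by 13 of 20 and 1 of 4 reads. In Col16a1, a 45-nt exon was held by 45 of 69 and 19 of 35 reads, a 48-nt exon by 61 of 66 and 27 of 32, and a 100-nt exon by 16 of 50 and 4 of 17. Col16a1 had no full read, and 36.3% and 39.5% of its reads were new combinations of annotated sites. In Col5a1, a 69-nt exon on chromosome 2 (28028967 to 28029035) was held by 257 of 269 and 84 of 93 reads. Another exon of 69 nt, at 28029097 to 28029165 and without an entry in the annotation, was held by 11 of 271 and 7 of 93 spanning reads. A 27-nt exon of Col18a1 was held by 62 of 74 and 26 of 29 reads. In all of these the Wilson intervals of the libraries overlapped.

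**Figure D5:**
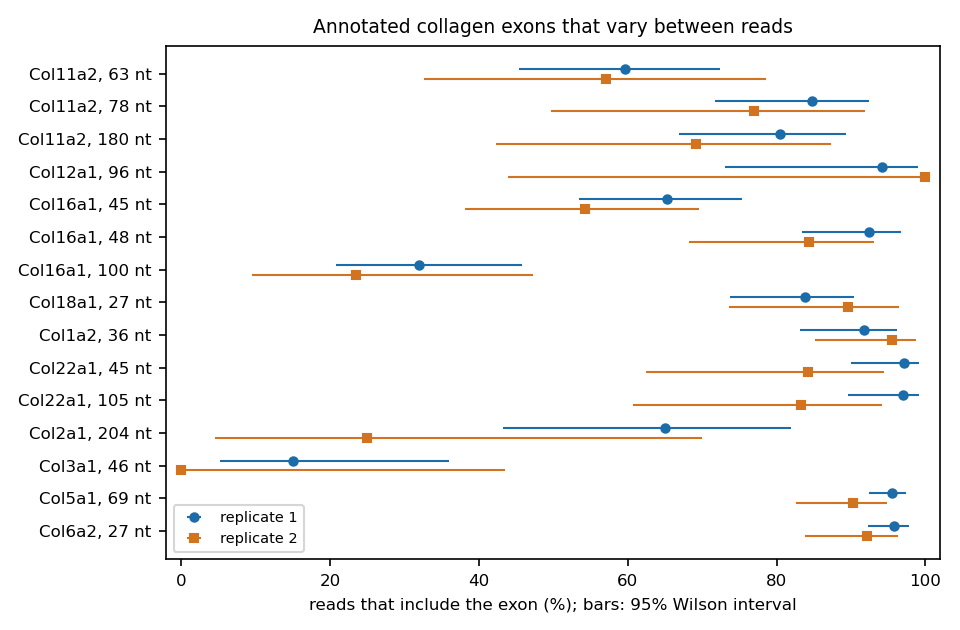
Share of spanning reads that hold each of the 15 annotated collagen exons counted as variable, in percent, labelled by gene and exon length, with replicate 1 as circles, replicate 2 as squares and 95% Wilson intervals as bars. The intervals of the libraries overlap for each exon, and Col12a1, Col2a1 and Col3a1 rest on at most 5 spanning reads in replicate 2.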

How the data were processed

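Long reads from 2 gastrocnemius libraries were analysed from the authors' deposited counts, which are raw reads per transcript model with no normalization. Per the file headers and labels, models carry TALON classes and were built on mm10 against GENCODE M21; the aligner is not given in the sources used here. Exons and introns came from deposited models. Spike-in reads were left out. Reads were summed per gene and class, and unannotated models were matched between libraries by intron chain. The annotated transcript of a gene was that of best APPRIS rank in M21, then of most exonic bases. Gene levels were tested by an exact conditional binomial test, and shares by Fisher's exact test, each with the Benjamini-Hochberg adjustment over all annotated genes tested; the exon test was adjusted over all genes rather than over collagens. Intervals are 95% Wilson intervals unless named. Functions were checked on simulated data. Members, gene lists and tests were chosen with earlier results of these data known. Genes reaching 20 reads in both libraries were named, and every annotated variable exon is labelled in the exon plot, though not all are given in the text. Python 3.11.15, numpy 2.4.6, scipy 1.17.1 and pandas 2.3.3 were used, with edgeR 4.0.16 and DESeq2 1.42.0 scaling factors as alternatives. The p-values measure counting error between libraries only.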

Additional observations from a re-analysis of the deposited data

How the results depend on the processing

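The gene calls kept 3 collagens under edgeR TMM factors, DESeq2 size factors, no read minimum and a minimum of 100 reads. They came to 8 with annotated models only, where Col22a1 was lost, 12 at any fold and 0 with the ratio of genes of like length. Over all genes, 207 calls became 59 with a minimum of 100 reads, 685 at any fold and 120 with the like-length ratio. TMM and DESeq2 factors each moved every log2 ratio by 0.02. No single-gene log2 ratio changed sign among called collagens. Incomplete-share calls were 5 collagens and 90 genes at any difference, and Col5a3 lost its call when genomic reads were left out. Transcript-share calls, 6 collagen models and 153 in all, became 0 and 9 among annotated reads only. That setting removes incomplete reads from the share. Variable collagen exons fell to 16 with 50 spanning reads, and annotated ones to 9 at 10% to 90%.

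The mean fibrillar share of collagen reads, 87.4%, became 94.2% with annotated models only, the basement membrane share, 8.25%, became 4.62%, and the share of others, 4.31%, became 1.14%. With type IV genes alone as basement membrane collagens, the shares were 7.61% and 4.95%. Without replicate 1 or replicate 2, the collagen share of mouse reads ranged between 1.33% and 2.26%. The incomplete share, 24.8% of collagen reads on average, was 53.5% as the median of members and 62.5% without Col1a1 and Col3a1. For fibrillar genes, 21.2% became 63.7% as a median and 81.9% without those genes, for basement membrane genes 54.9% became 44.7% as a median, and for other collagens 38.5% became 51.1% as a median and 44.7% when counted as not reaching from first to last exon. The cause of these moves was not tested. Both libraries carry different replicate numbers of 1 group. No paired analysis was possible because the design has no second group. Depth limits the 22 collagens with fewer than 20 reads in a library.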

Other observations

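Several collagen genes are neighbours in the annotation, and their levels can be set side by side as values. Col4a1 and Col4a2 lie head to head on chromosome 8 with overlapping 5′ ends, and had 1087 and 603 CPM in replicate 1 and 604 and 417 CPM in replicate 2. Col4a4 and Col4a3, head to head with 126 bases between them, had at most 1 read in either library. Col4a6 and Col4a5, head to head on the X chromosome with 1308 bases between them, had 1 and 4 reads in replicate 1 and none and 2 reads in replicate 2. Col3a1 and Col5a2 lie tail to tail, 24614 bases apart, and had 10116 and 140 CPM in replicate 1 and 6082 and 76.4 CPM in replicate 2. Col6a2 and Col6a1 lie on the same strand, 85161 bases apart, with 258 and 372 CPM in replicate 1 and 139 and 269 CPM in replicate 2.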
